A study of Mus musculus with 18 samples.

Results

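The effect of a conditional Pth1r knockout was compared between 2 sorted subsets of osterix-derived mouse cells, GFP-positive bone cells and bone marrow stromal cells. The quantity is a difference of differences: log2(KO/Ctrl) in GFP-positive bone minus log2(KO/Ctrl) in marrow, called the difference below. A positive difference means that the knockout effect was higher in bone than in marrow, a negative one that it was lower. It was chosen by library title and uses 12 of the 18 libraries of the series, with every gene that passed a filter on low counts as a member, 15516 of 54446 gene IDs. The 4 groups of 3 libraries each were conditional PTH1R KO bone cells (KO_Bone_GFP+, KO bone below), wild type bone cells (Ctrl_Bone_GFP+, Ctrl bone), conditional PTH1R KO marrow stromal cells (KO_BM_GFP-Tm+, KO marrow) and wild type marrow stromal cells (Ctrl_BM_GFP-Tm+, Ctrl marrow). All mice were at postnatal day 21. Bone cells were sorted as GFP-positive, and marrow cells as GFP-negative and positive for a marker the labels write as Tm. Tissue and sort gate thus change together between the subsets, and their parts in the difference cannot be told apart in these 12 libraries. The labels name osteoprogenitors as the cells of the knockout, but neither the Cre driver nor the alleles, and whether replicate libraries are different mice is not stated. The p-values therefore measure only the spread between these samples.

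Osterix, encoded by Sp7, drives osteoblast formation, and cells that descend from osterix-expressing progenitors include osteoblasts, osteocytes, some hypertrophic chondrocytes and marrow stromal cells. Pth1r encodes a G-protein-coupled receptor with parathyroid hormone and the related protein PTHrP as its ligands. It signals mainly through cyclic AMP and protein kinase A. In bone it is known for control of matrix formation, of the Wnt inhibitor sclerostin and of the osteoclast factor RANKL. In marrow stroma it is known for holding back fat-cell differentiation.

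Levels are given as CPM, counts scaled to a common library size after TMM normalization. The totals of the 12 libraries ran from 16443595 to 27160257 counts, and 3 counts, the upper limit for a gene at 0, came to 0.0966 to 0.216 CPM. The 10 most abundant genes took 36.9 to 38.2% of the counts in KO bone, 22.6 to 23.8% in Ctrl bone, 19.9 to 23.4% in KO marrow and 27.8 to 33.8% in Ctrl marrow. Col2a1, the main cartilage collagen, alone averaged 263816 ± 14554 CPM in KO bone and 84692 ± 11228 CPM in Ctrl bone (SD, n = 3 each), so the GFP-positive bone subset held cartilage transcripts at a high level. Sp7 itself averaged 156 ± 15.3 CPM in KO bone, 146 ± 11.3 CPM in Ctrl bone, 111 ± 21.4 CPM in KO marrow and 165 ± 13.8 CPM in Ctrl marrow. The stromal marker Lepr averaged 48.8 ± 9.32 CPM in KO bone, 13.2 ± 1.43 CPM in Ctrl bone, 3480 ± 236 CPM in KO marrow and 1404 ± 316 CPM in Ctrl marrow. In 1 library each, markers of another cell type stood apart: 8 erythroid genes summed to 514 CPM in KO bone replicate 2 (36.2 CPM in the lowest KO bone library and 136 to 165 CPM in Ctrl bone), and 8 megakaryocyte genes to 359 CPM in KO marrow replicate 2 (5.75 CPM in the lowest KO marrow library and 5.40 to 5.57 CPM in Ctrl marrow). Of the calls described below, 2194 were kept without KO bone replicate 2 and 2395 without KO marrow replicate 2. By Y-linked genes, replicates 1 and 2 differed from replicate 3 in all 4 groups alike.

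The knockout changed the 2 subsets differently at many genes. The difference passed the edgeR quasi-likelihood test (Benjamini-Hochberg adjusted p under 0.05 over all genes) for 2853 of 15516 genes (18.4%), of which 1674 were positive (10.8%) and 1179 negative (7.6%). At least 2-fold differences made up 1461 of the calls, 1056 positive and 405 negative. For comparison, the knockout effect itself passed at 7953 genes in bone (51.3%) and at 7425 in marrow (47.9%). Counts of called list members below are to be read against these shares of all genes. Some genes sit in more than 1 list, so the same call can be counted more than once. Of the calls 58.7% were positive with TMM scaling, and 13.5% with library totals alone (766 positive and 4911 negative). That setting moved the median difference by -0.52 (log2), and all directions below are relative to the TMM scaling.

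Most calls came from a change in 1 subset, not from opposite changes. Among the 1674 positive differences, 511 genes were higher in the knockout in bone with no call in marrow, 435 were lower in marrow with no call in bone, and 313 were higher in both, more so in bone. A further 155 were lower in both subsets, less so in bone. Among the 1179 negative differences, 484 were lower in bone with no call in marrow, 270 were lower in both and 263 were higher in marrow with no call in bone. Opposite called effects were found at 327 genes, 237 higher in bone and lower in marrow and 90 lower in bone and higher in marrow. A call in 1 subset alone often came without a called difference: of 2920 genes called in bone alone 995 had a called difference, and of 2392 called in marrow alone 698 had one. KO and Ctrl libraries did not overlap in either subset for 1369 of the 2853 genes, and overlapped in both subsets for 33. Overlap was counted among called genes only, so these counts do not set them apart from all tested genes. Most genes called in both subsets moved in the same direction, 4706 of 5033. Both effects also moved with transcript length (Spearman correlation 0.44 in bone and 0.41 in marrow). With a correction for length, 6543 genes were called in bone and 6110 in marrow. The part of length in the shared direction was not tested.

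**Figure D1:**
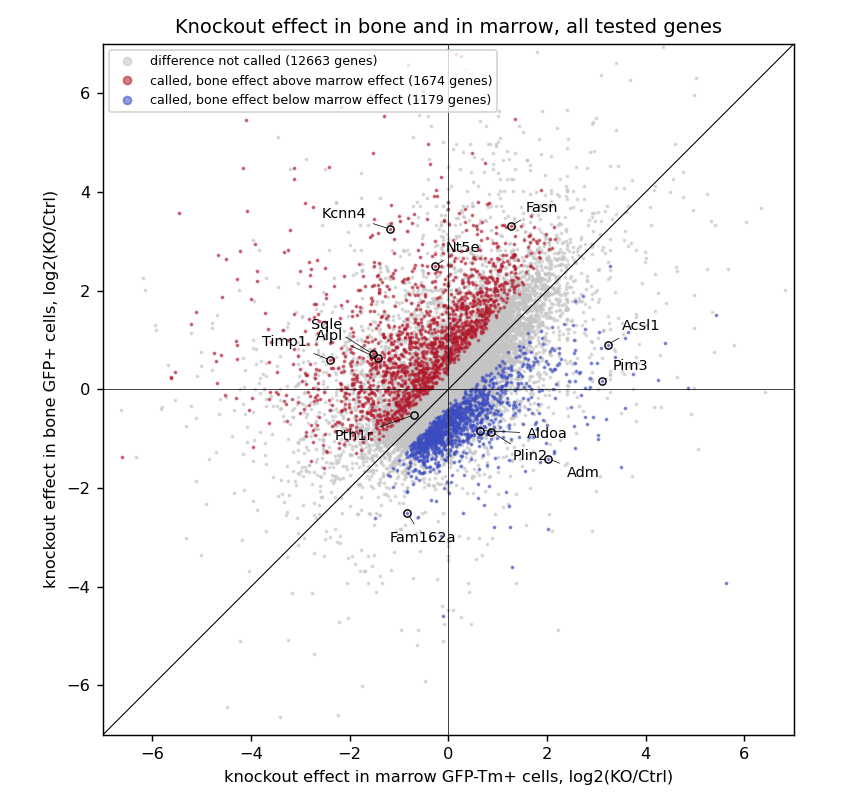
Knockout effect, log2(KO/Ctrl), in marrow (x axis) and in GFP-positive bone (y axis) for the 15516 genes tested, 25 of which lie outside the axes. Each point is a gene, the diagonal marks equal effects, 1674 genes in red lie above it with a called positive difference and 1179 in blue lie below it with a called negative one. Circled genes are described in the text. Alpl, Timp1 and Sqle sit in the upper left, higher in KO bone and lower in KO marrow, and Adm, Aldoa and Plin2 in the lower right.

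The targeted gene did not show a called difference. Pth1r (ENSMUSG00000032492.14, chromosome 9, 110722085 to 110747145 on mm10, minus strand) had 4038, 3255 and 2725 CPM in KO bone against 4481, 4842 and 5035 CPM in Ctrl bone, and 373, 337 and 318 CPM in KO marrow against 541, 581 and 553 CPM in Ctrl marrow. It was lower in all KO libraries of both subsets, with no overlap, and was still counted in each. The labels do not name the deleted exons, so counts over the whole gene do not check the deletion. The effect was -0.52 ± 0.13 in bone and -0.70 ± 0.13 in marrow (log2 ± SE), and the difference was 0.18 ± 0.18 (edgeR adjusted p = 0.544). With library totals alone it was -0.34 (adjusted p = 0.166). Of the 16 genes for ligands and coupling of the receptor 2 had a positive and 1 a negative difference (18.8% called, near the 18.4% of all genes). By library totals alone, 7 were negative. Slc9a3r1, which encodes the scaffold NHERF1 that binds the receptor, averaged 16.6 CPM in KO bone, 3.5 CPM in Ctrl bone, 117 CPM in KO marrow and 96.9 CPM in Ctrl marrow, and its difference was 1.93 ± 0.25 (adjusted p = 4.48e-05). Ramp2, a partner of the receptor, averaged 2.63 CPM in KO bone, 2.59 CPM in Ctrl bone, 31.6 CPM in KO marrow and 15.8 CPM in Ctrl marrow. Its difference of -0.98 ± 0.27 (adjusted p = 0.0178) lost its call without Ctrl bone replicate 1 (adjusted p = 0.0713). Pthlh, the paracrine ligand, was near the counting floor in Ctrl bone (0.114, 0 and 0.144 CPM) and had 0.822, 0.291 and 0.720 CPM in KO bone, 0.225, 0.261 and 0.188 CPM in KO marrow and 0.636, 2.27 and 4.43 CPM in Ctrl marrow. Its difference was called (adjusted p = 0.00953), but its size rests on few reads.

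Bone-forming genes had the highest share of called members among the 24 lists. All 24 were chosen with earlier results of these data known, so the ranking is a description and not independent support. Of 21 osteoblast genes, 18 had a called positive difference and 0 a negative one (85.7% called, against 18.4% of all genes), with a median difference of 1.6 against 0.05 over all genes. With library totals alone 12 were positive and 1 negative, with a median of 1.08. Among the 18 are Pthlh, which had few reads, and Tnfrsf11b, described below, whose call ended with library totals alone. The knockout effect had a median of 0.42 in bone and of -1.0 in marrow: 10 of the 21 genes were higher and 3 lower in KO bone, while 15 were lower and 0 higher in KO marrow. Alpl (chromosome 4, 137741733 to 137796384, minus strand) encodes the tissue-nonspecific alkaline phosphatase that frees phosphate for mineral. It had 3728, 3807 and 3257 CPM in KO bone against 2290, 2433 and 2240 CPM in Ctrl bone, and 589, 478 and 481 CPM in KO marrow against 1212, 1598 and 1361 CPM in Ctrl marrow. Every KO bone library was above every Ctrl bone library and every KO marrow library below every Ctrl marrow library. The knockout level was 1.55-fold higher in bone and 2.69-fold lower in marrow, and the difference was 2.06 ± 0.16 (adjusted p = 2.6e-07). Dlx3, a homeobox factor of osteoblasts, had 45.4, 51.3 and 39.1 CPM in KO bone against 22.9, 28.9 and 27.7 CPM in Ctrl bone, and 15, 12.2 and 14.2 CPM in KO marrow against 32.6, 47.6 and 41.3 CPM in Ctrl marrow. It followed the pattern of Alpl, with no overlap in either subset and a difference of 2.33 ± 0.23 (adjusted p = 2.51e-06). Sparc, a collagen-binding matrix protein, averaged 33234 ± 1594 CPM in KO bone, 26268 ± 2407 CPM in Ctrl bone, 10033 ± 1499 CPM in KO marrow and 27193 ± 4878 CPM in Ctrl marrow. Its marrow fall of 1.44 (log2) was called and its bone value of 0.34 was not (adjusted p = 0.0638). Col1a2, a chain of type I collagen, was higher in KO bone (0.96) and lower in KO marrow (-0.78), with a difference of 1.74 ± 0.27 (adjusted p = 2.15e-04). Bglap, which encodes osteocalcin, was lower in both subsets (-0.92 in bone, -2.71 in marrow), less so in bone, with a difference of 1.80 ± 0.38. Bglap2 is a near-identical copy, so reads of the pair may have been split. Each library is a bulk sample, in which fewer cells of a type and less RNA per cell cannot be told apart.

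Osteocyte genes, whose products act in mineral handling and cell processes of the buried bone cell, moved the same way. Of 11 tested (Fgf23 was not), 8 had a positive and 0 a negative difference, with a median of 2.24, or 1.93 with Sost, which was at 0 counts in a whole group, set to 3 counts per library there. Phex, a peptidase of phosphate handling, had 67.6, 96.8 and 80.1 CPM in KO bone against 12.2, 11.1 and 10.8 CPM in Ctrl bone, and 83.1, 79.1 and 62.2 CPM in KO marrow against 41.8, 55.7 and 51.3 CPM in Ctrl marrow. It rose in both subsets without overlap, 7.15-fold in bone and 1.51-fold in marrow, and the difference was 2.24 ± 0.19 (adjusted p = 4.44e-07). Dmp1, an acidic matrix protein of osteocytes, averaged 264 CPM in KO bone, 110 CPM in Ctrl bone, 226 CPM in KO marrow and 519 CPM in Ctrl marrow, with a difference of 2.46 ± 0.43 (adjusted p = 0.00137); it was singled out after its values were seen. Pdpn, a membrane glycoprotein of early osteocytes, averaged 4.58 CPM in KO bone and 4.74 CPM in Ctrl bone, against 0.540 CPM in KO marrow and 3.18 CPM in Ctrl marrow.

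Cartilage genes had positive differences, with called effects in both subsets. Of 22 genes, 13 had a positive and 0 a negative difference, with a median of 0.69. With library totals alone 6 were positive and 1 negative, with a median of 0.17, and without Ctrl marrow replicate 2 there was 1 negative call. In bone 13 were higher and 5 lower in the knockout, and in marrow 6 were higher and 8 lower. The median effect was 0.75 in bone and -0.11 in marrow. Col11a2, a chain of type XI collagen of the cartilage fibril, had 15224, 14894 and 14329 CPM in KO bone against 1508, 1107 and 1613 CPM in Ctrl bone, and 799, 560 and 401 CPM in KO marrow against 297, 563 and 542 CPM in Ctrl marrow. The bone groups lay far apart, 10.5-fold, and the marrow groups overlapped. The difference was 3.07 ± 0.34 (adjusted p = 1.31e-05). Acan, the proteoglycan aggrecan, averaged 7021 ± 935 CPM in KO bone, 1467 ± 173 CPM in Ctrl bone, 48.5 ± 2.79 CPM in KO marrow and 28.6 ± 5.84 CPM in Ctrl marrow. It rose 4.79-fold in bone and 1.70-fold in marrow, with a difference of 1.49 ± 0.20 (adjusted p = 5.44e-05). Col10a1, the collagen of hypertrophic cartilage, averaged 8683 CPM in KO bone, 1887 CPM in Ctrl bone, 150 CPM in KO marrow and 181 CPM in Ctrl marrow, and its difference was 2.48 ± 0.34 (adjusted p = 1.04e-04).

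Most called collagen-modifying and matrix-degrading genes had positive differences. Of 21 collagen-modifying enzymes, 12 had a positive and 0 a negative difference. Their median of 0.48 turned to -0.04 with library totals alone, where 5 were positive and 1 negative. Loxl4, a lysyl oxidase that crosslinks collagen, averaged 1267 CPM in KO bone, 221 CPM in Ctrl bone, 26.8 CPM in KO marrow and 27 CPM in Ctrl marrow, with a difference of 2.52 ± 0.27 (adjusted p = 7.79e-06). P4ha1 and P4ha2, prolyl hydroxylases of collagen, were lower in both subsets and less so in bone, with differences of 0.65 ± 0.13 and 0.54 ± 0.14. Of 17 metalloproteases and inhibitors, 7 had a positive and 2 a negative difference, with a median of 1.03 (0.65 without KO bone replicate 2). With the member at 0 in a whole group set to 3 counts per library, it was 0.85. The negative members, Mmp23 and Adamts1, both lost their calls without Ctrl marrow replicate 2, Ctrl bone replicate 1, KO marrow replicate 1, KO bone replicate 1 or KO bone replicate 2. Timp1 (chromosome X, 20870166 to 20874735, plus strand), a secreted inhibitor of matrix metalloproteases, had the smallest p of all positive differences. It had 306, 321 and 344 CPM in KO bone against 209, 241 and 193 CPM in Ctrl bone, and 21.2, 28.5 and 22.9 CPM in KO marrow against 102, 152 and 126 CPM in Ctrl marrow. The groups overlapped in neither subset. It was 1.51-fold higher in KO bone and 5.24-fold lower in KO marrow, and the difference was 2.98 ± 0.20 (adjusted p = 8.12e-08). Timp3, a matrix-bound inhibitor of the same family, had 716, 868 and 1689 CPM in KO bone against 253, 238 and 234 CPM in Ctrl bone, and 22.2, 39.9 and 30.6 CPM in KO marrow against 39.5, 52.4 and 82.8 CPM in Ctrl marrow. The bone groups did not overlap, and in marrow 1 KO library lay just above the lowest Ctrl library. The difference was 3.09 ± 0.44 (adjusted p = 2.67e-04). Mmp2, a gelatinase, averaged 1038 CPM in KO bone and 905 CPM in Ctrl bone with no call, and 298 CPM in KO marrow against 862 CPM in Ctrl marrow.

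Fibroblast, periosteal and tendon matrix genes were mostly positive where called, 10 positive and 2 negative of 19, with a median of 1.23. Fn1, fibronectin, averaged 3856 CPM in KO bone, 392 CPM in Ctrl bone, 225 CPM in KO marrow and 115 CPM in Ctrl marrow, with a difference of 2.33 ± 0.25 (adjusted p = 5.1e-06). Postn, periostin, was not called in bone (1016 CPM in KO bone, 949 CPM in Ctrl bone) and fell in marrow (65.8 CPM in KO marrow, 190 CPM in Ctrl marrow). Fmod and Ogn, small collagen-binding proteoglycans, were the 2 negative ones, at -1.46 ± 0.29 and -0.54 ± 0.18. The negative count was 1 without Ctrl marrow replicate 2, Ctrl bone replicate 1, KO marrow replicate 2 or 3, or KO bone replicate 1 or 3. Contractile genes of smooth-muscle type had 7 positive and 0 negative differences of 12. The positive count was 4 with library totals alone. Their median of 2.2 was lower, 1.12, without Ctrl marrow replicate 3. By subset, 3 contractile genes were higher and 0 lower in KO bone, and 0 were higher and 9 lower in KO marrow. Actg2, smooth-muscle gamma actin, had 0.868, 1.07 and 1.51 CPM in KO bone against 1.10, 1.62 and 0.963 CPM in Ctrl bone, and 1.58, 1.68 and 1.41 CPM in KO marrow against 28.5, 25.4 and 39.3 CPM in Ctrl marrow. The Ctrl marrow libraries alone stood out, 19.7-fold above KO marrow, and the difference was 4.14 ± 0.61 (adjusted p = 1.45e-04). Acta2 averaged 53.5 ± 12.7 CPM in KO marrow and 833 ± 731 CPM in Ctrl marrow, a spread within Ctrl marrow close to its mean.

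**Figure D2:**
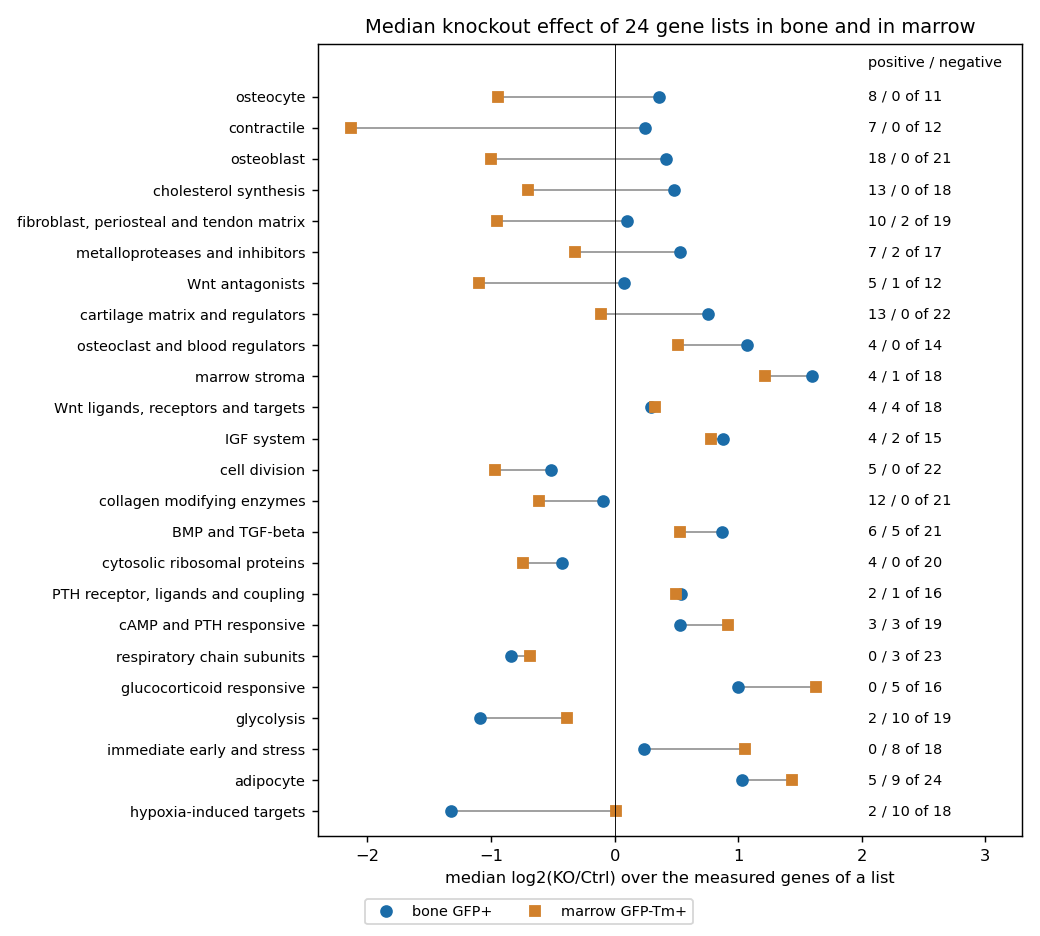
Median log2(KO/Ctrl) over the measured genes of 24 gene lists in bone (circles) and marrow (squares), ordered by the median difference, which need not equal the gap between the medians. Numbers at the right give the genes with a called positive and a called negative difference. Osteoblast, osteocyte, contractile and cholesterol genes lie at the top with bone to the right of marrow, and hypoxia-induced and glycolysis genes near the bottom with bone to the left.

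Genes of cholesterol synthesis, most of which are switched on together by the transcription factor SREBP2 when sterol is low, had mostly positive differences. Of 18, 13 had a positive and 0 a negative difference, with a median of 1.41 (0.90 with library totals alone). By subset, 12 were higher and 2 lower in KO bone, and 1 was higher and 9 were lower in KO marrow. Sqle (chromosome 15, 59315077 to 59331192, plus strand), the squalene epoxidase, had 335, 366 and 409 CPM in KO bone against 215, 238 and 222 CPM in Ctrl bone, and 9.95, 9.93 and 11.1 CPM in KO marrow against 27.3, 25.8 and 36.8 CPM in Ctrl marrow. KO was above Ctrl in bone and below it in marrow in every library. It rose 1.64-fold in bone and fell 2.90-fold in marrow, with a difference of 2.25 ± 0.16 (adjusted p = 1.79e-07). Hmgcs1, the synthase that makes HMG-CoA, averaged 866 ± 60.7 CPM in KO bone, 280 ± 22.5 CPM in Ctrl bone, 42.4 ± 1.03 CPM in KO marrow and 38.0 ± 1.85 CPM in Ctrl marrow, so that its difference of 1.47 ± 0.12 (adjusted p = 3.46e-07) came from bone. Fdft1, the squalene synthase, rose by 0.45 in bone and fell by 1.24 in marrow (log2).

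Fat-cell genes split both ways. Of 24, 5 had a positive and 9 a negative difference, while the knockout effect was higher for 13 genes in bone and for 20 in marrow. The median difference of -0.66 was unsteady: 0.08 without Ctrl bone replicate 1, -0.37 without Ctrl marrow replicate 1, -0.36 without Ctrl bone replicate 3 and -0.34 without KO marrow replicate 2. Without Ctrl bone replicate 1 or 3, or with library totals alone, 3 genes were positive. The 5 positive genes were Fasn, Scd2, Adipoq, Pparg and Apoe, and the 9 negative ones Plin2, Acsl1, Zfp423, Scd1, Fabp5, Dgat2, Lipe, Cd36 and Cebpb. Fasn, the fatty acid synthase, had 373, 401 and 459 CPM in KO bone against 47.0, 31.1 and 46.4 CPM in Ctrl bone, and 40.5, 30.6 and 43.9 CPM in KO marrow against 15.9, 16.1 and 15.7 CPM in Ctrl marrow. KO was higher in every library of both subsets, 9.91-fold in bone and 2.41-fold in marrow, and the difference was 2.04 ± 0.22 (adjusted p = 5.1e-06). Acsl1, which activates long-chain fatty acids, showed the reverse order of sizes: 28.7, 33.2 and 46.2 CPM in KO bone against 16.3, 15.6 and 25.6 CPM in Ctrl bone, and 246, 243 and 184 CPM in KO marrow against 27.4, 20.8 and 23.7 CPM in Ctrl marrow. It rose 1.88-fold in bone and 9.36-fold in marrow, with a difference of -2.32 ± 0.26 (adjusted p = 8.3e-06). Plin2 (chromosome 4, 86648386 to 86670060, minus strand), a coat protein of lipid droplets, had 26, 22.9 and 23.5 CPM in KO bone against 44.3, 42.5 and 44.4 CPM in Ctrl bone, and 123, 126 and 100.02 CPM in KO marrow against 67.0, 61.5 and 63.3 CPM in Ctrl marrow. It was lower in every KO bone library and higher in every KO marrow library, with a difference of -1.72 ± 0.14 (adjusted p = 2.69e-07). Scd2, a desaturase that makes monounsaturated fatty acids, was higher in KO bone (0.52) and lower in KO marrow (-0.60). Its relative Scd1 was not called in bone (313 ± 5.59 CPM in KO bone, 307 ± 18.9 CPM in Ctrl bone) and rose 6.83-fold in marrow (516 ± 148 CPM in KO marrow, 75.6 ± 33.6 CPM in Ctrl marrow).

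Hypoxia-induced genes, targets of the factor HIF-1 that responds to low oxygen, were lower in KO bone and mostly not in KO marrow. Of 18, 10 had a negative and 2 a positive difference, with a median of -1.02. Scaled by library totals alone, 14 were negative and 0 positive. In bone 13 were lower and 2 higher, and in marrow 6 were lower and 6 higher. The 4 genes with the smallest p are set out first by the 300 bases around their RefSeq starts (250 before and 50 after, build GRCm38.p6, the same assembly as mm10), since the shared regulator has a known short core. Capitals mark the letters ACGTG or GCGTG on either strand, the hypoxia response core, which overlaps the E-box CACGTG bound by other factors.
Fam162a: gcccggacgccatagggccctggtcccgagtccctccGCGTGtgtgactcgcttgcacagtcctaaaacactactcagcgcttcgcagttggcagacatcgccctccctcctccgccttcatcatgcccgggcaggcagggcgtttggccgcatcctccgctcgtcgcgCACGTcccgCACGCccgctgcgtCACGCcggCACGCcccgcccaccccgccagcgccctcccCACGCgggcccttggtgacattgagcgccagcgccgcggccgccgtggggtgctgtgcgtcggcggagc
Bnip3: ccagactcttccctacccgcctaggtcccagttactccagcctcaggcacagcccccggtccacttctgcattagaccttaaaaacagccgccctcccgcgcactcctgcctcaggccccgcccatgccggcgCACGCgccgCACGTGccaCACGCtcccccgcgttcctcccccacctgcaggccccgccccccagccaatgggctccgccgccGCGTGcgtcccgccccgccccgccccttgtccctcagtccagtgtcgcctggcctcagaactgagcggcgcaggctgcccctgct
Adm: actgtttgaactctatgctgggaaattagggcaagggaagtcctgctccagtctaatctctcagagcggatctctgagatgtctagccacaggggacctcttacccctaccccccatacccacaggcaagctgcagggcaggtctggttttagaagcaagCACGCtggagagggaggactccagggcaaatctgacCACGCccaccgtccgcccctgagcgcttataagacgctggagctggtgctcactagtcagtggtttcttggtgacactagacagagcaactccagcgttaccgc
Higd1a: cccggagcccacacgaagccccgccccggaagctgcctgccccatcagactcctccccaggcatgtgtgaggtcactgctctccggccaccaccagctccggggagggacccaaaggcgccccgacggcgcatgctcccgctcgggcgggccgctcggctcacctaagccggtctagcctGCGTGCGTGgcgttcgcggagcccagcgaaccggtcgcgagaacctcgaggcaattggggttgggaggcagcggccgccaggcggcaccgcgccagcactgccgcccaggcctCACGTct
The windows lie at chr16:36071512-36071811 on the minus strand for Fam162a, chr7:138909457-138909756 on the minus strand for Bnip3, chr7:110627407-110627706 on the plus strand for Adm and chr9:121857747-121858046 on the minus strand for Higd1a. The window of Fam162a holds 6 matches, that of Bnip3 5, that of Adm 2 and that of Higd1a 3. Matches did not go with direction within the list. The windows of P4ha1 and P4ha2, its 2 members with a positive difference, hold 3 and 4. Those of Vegfa, with a negative difference, hold 0 and 2. The core is short and common: 43.8% of all 32851 windows in the table hold it, and 60.0% of the 14372 windows of genes tested. Of the list, 14 genes had 19 windows in the table, and 15 of the windows held a match. Windows of genes with a negative difference held it in 64.4% and those with a positive one in 59.0%. A match is a description of the letters and not a bound site.

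Adm, the vasodilator peptide adrenomedullin, had opposite effects in the 2 subsets. It had 10.1, 8.92 and 4.82 CPM in KO bone against 20.6, 23.4 and 20.7 CPM in Ctrl bone, and 31.4, 28.6 and 20.1 CPM in KO marrow against 6.14, 6.71 and 6.91 CPM in Ctrl marrow. KO was lower in every bone library, 2.65-fold, and higher in every marrow library, 4.08-fold, and the difference was -3.43 ± 0.29 (adjusted p = 3.46e-07). Fam162a, a mitochondrial protein, had 57.2, 46.3 and 46.8 CPM in KO bone against 294, 286 and 273 CPM in Ctrl bone, and 29.2, 25.6 and 30.3 CPM in KO marrow against 50.7, 47.6 and 52.8 CPM in Ctrl marrow. It fell in both subsets without overlap, 5.67-fold in bone and 1.78-fold in marrow, with a difference of -1.67 ± 0.13 (adjusted p = 2.6e-07). Bnip3, which directs mitochondria to autophagy, had 212, 181 and 199 CPM in KO bone against 582, 514 and 474 CPM in Ctrl bone, and 32.4, 43.5 and 33.5 CPM in KO marrow against 29.4, 27 and 23.2 CPM in Ctrl marrow. It was 2.65-fold lower in KO bone and 1.37-fold higher in KO marrow. Higd1a, another mitochondrial protein, averaged 101 CPM in KO bone, 421 CPM in Ctrl bone, 24.3 CPM in KO marrow and 43.5 CPM in Ctrl marrow, with a difference of -1.22 ± 0.14 (adjusted p = 1.31e-05). Car9, a carbonic anhydrase, had a count of 0 in all 3 KO bone libraries, which allows up to 0.137 to 0.216 CPM, against 2.50 ± 0.79 CPM in Ctrl bone. Vegfa, the vascular growth factor, rose in both subsets, by 0.96 in bone and 1.63 in marrow (log2), and it had a negative difference of -0.67 ± 0.20 (adjusted p = 0.0222). The 2 positive members were P4ha1 and P4ha2, described above.

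**Figure D3:**
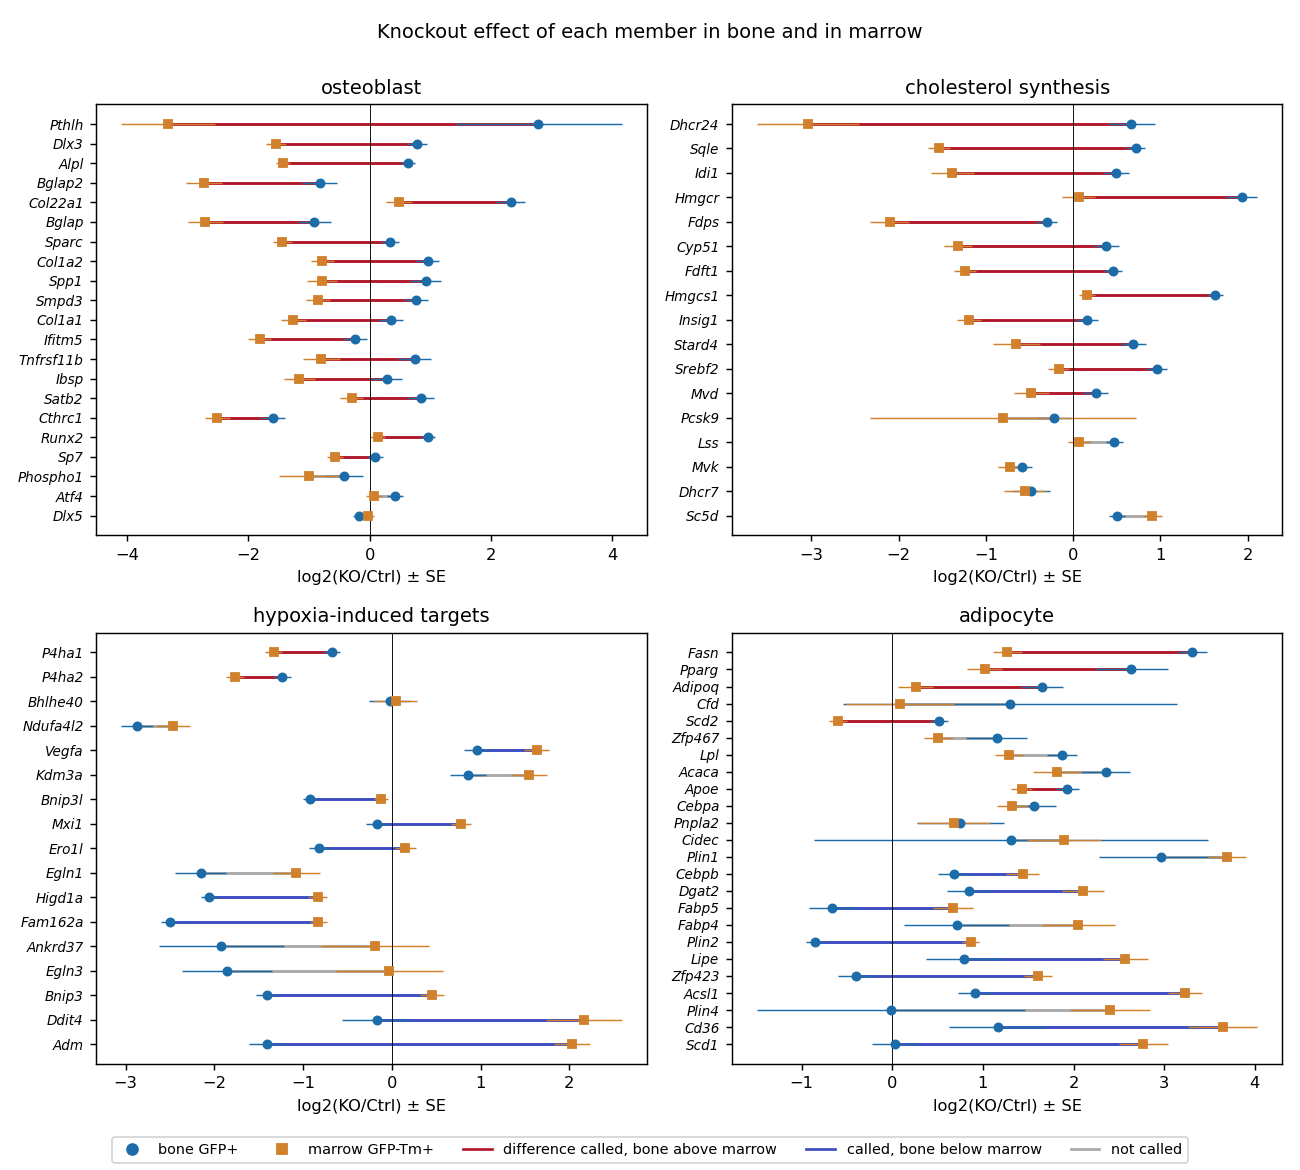
Knockout effect, log2(KO/Ctrl) ± SE, of the measured members of 4 gene lists in bone (circles) and marrow (squares), ordered by the difference; line colour gives its call. Car9 is left out because KO bone was at 0, and 1 cholesterol gene is not shown. Osteoblast and cholesterol genes have bone to the right of marrow, most hypoxia-induced genes have bone to the left, and fat-cell genes split.

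Glycolysis genes, many of them HIF-1 targets too, followed the same direction. Of 19, 10 had a negative and 2 a positive difference, with a median of -0.55; 14 were lower in KO bone and 11 in KO marrow. Aldoa (ENSMUSG00000030695.16, chromosome 7, 126795234 to 126800751, minus strand), the aldolase of muscle and most tissues, had 422, 371 and 397 CPM in KO bone against 718, 716 and 686 CPM in Ctrl bone, and 410, 466 and 508 CPM in KO marrow against 294, 272 and 321 CPM in Ctrl marrow. KO was lower in every bone library and higher in every marrow library, 1.78-fold and 1.56-fold, with a difference of -1.48 ± 0.12 (adjusted p = 3.43e-07). Another gene ID carries the same symbol, so reads may have been split. Pgk1, a kinase that yields ATP in glycolysis, averaged 134 ± 14.2 CPM in KO bone, 509 ± 13.9 CPM in Ctrl bone, 30.8 ± 3.67 CPM in KO marrow and 50.3 ± 4.72 CPM in Ctrl marrow. It was lower in both subsets and more so in bone (-1.21 ± 0.14, adjusted p = 1.36e-05). Pgam1 and Pfkl had differences of -1.18 ± 0.13 and -1.63 ± 0.18. The 2 positive genes were hexokinases, which trap glucose in the cell: Hk1 averaged 191 CPM in KO bone, 99.0 CPM in Ctrl bone, 42.8 CPM in KO marrow and 53.6 CPM in Ctrl marrow, and Hk2 rose by 2.19 in bone and by 0.75 in marrow (log2). Respiratory chain subunits, by contrast, were lower in both subsets for 22 of 23 genes each. In either direction, 51.3% of all genes were called in bone and 47.9% in marrow. The part of transcript length in this fall was not tested. Of the 23 subunits, 3 had a called difference (13%, against 18.4% of all genes), all negative and small (median -0.16, or -0.07 without KO bone replicate 2). That count was 1 without Ctrl marrow replicate 1 or 2, Ctrl bone replicate 3, KO marrow replicate 1 or KO bone replicate 2, and 6 without KO bone replicate 1. With library totals alone it was 21, and with DESeq2 or a replicate block 5.

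The secreted inhibitors of Wnt signalling mostly differed through marrow. Of 12, 5 had a positive and 1 a negative difference, with a median of 0.89 (0.74 with Sost set to 3 counts per library where at 0). Dkk1, which blocks the coreceptor LRP6, had 3.47, 4.75 and 4.03 CPM in KO bone against 5.09, 3.47 and 4.04 CPM in Ctrl bone, and 1.90, 1.61 and 1.97 CPM in KO marrow against 9.51, 17.3 and 12.6 CPM in Ctrl marrow. The bone groups overlapped, and marrow fell 7.17-fold without overlap. The difference was 2.79 ± 0.38 (adjusted p = 6.68e-05). Frzb, a decoy receptor, likewise averaged 205 ± 22.1 CPM in KO bone and 199 ± 8.84 CPM in Ctrl bone, against 5.76 ± 1.49 CPM in KO marrow and 25.0 ± 5.16 CPM in Ctrl marrow. Wif1, which binds Wnt proteins, rose in bone (0.86) and fell in marrow (-1.07). The negative member was Dkk2, which rose in marrow (2.03) and was not called in bone. Its call ended without Ctrl bone replicate 1. Sfrp1 lost its call with library totals alone (adjusted p = 0.229). Among 18 Wnt ligands, receptors and targets 4 differences were positive and 4 negative, and all 4 positive calls ended with library totals alone, where 7 were negative. The positive count was 2 without KO bone replicate 2. Fzd1, a Wnt receptor, had 29.1, 27.7 and 26.8 CPM in KO bone against 27.6, 20.7 and 18 CPM in Ctrl bone, and 649, 640 and 1055 CPM in KO marrow against 170, 94.5 and 111 CPM in Ctrl marrow. It was called in marrow, 6.23-fold higher, and not in bone, and the difference was -2.30 ± 0.31 (adjusted p = 1.09e-04). Rspo3, an enhancer of Wnt signalling, fell in bone (-1.36) with no call in marrow (0.28).

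BMP and TGF-beta genes had 6 positive and 5 negative differences of 21, and the negative count was 2 without Ctrl marrow replicate 2, Ctrl bone replicate 3, KO marrow replicate 2 or KO bone replicate 2, and 3 without Ctrl marrow replicate 1, Ctrl bone replicate 1 or 2, or KO bone replicate 3. All 3 TGF-beta ligands were positive: Tgfb3 averaged 120 CPM in KO bone, 66.6 CPM in Ctrl bone, 67.5 CPM in KO marrow and 91.8 CPM in Ctrl marrow, with a difference of 1.29 ± 0.14 (adjusted p = 7.32e-06). Bmp1, the protease that trims procollagen, rose in bone (0.32) and fell in marrow (-0.71). Chrdl1, a BMP antagonist, did the opposite, falling in bone (-0.70) and rising in marrow (0.83), with a difference of -1.53 ± 0.20 (adjusted p = 3.77e-05). Id1, Id2 and Id3, target genes of BMP signalling, all had negative differences, from -1.68 to -1.07. In the IGF system, 4 differences were positive and 2 negative of 15. Without Ctrl marrow replicate 2 or KO bone replicate 2 the positive count was 2, and with library totals alone 2 were positive and 3 negative. The negative ones were the insulin receptor substrates: Irs2 had 207, 181 and 159 CPM in KO bone against 111, 102 and 116 CPM in Ctrl bone, and 349, 457 and 512 CPM in KO marrow against 79.9, 84.0 and 113 CPM in Ctrl marrow. KO was higher in every library of both subsets, 1.67-fold in bone and 4.75-fold in marrow (difference -1.51 ± 0.22, adjusted p = 1.5e-04). Irs1 rose by 0.73 in bone and 2.55 in marrow (log2). Stc2, an inhibitor of the IGF-freeing protease Pappa, was positive at 1.43 ± 0.20.

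Early-response and stress genes were higher in more cases in KO marrow than in KO bone. Of 18, 8 had a negative and 0 a positive difference (44.4% called, against 18.4% of all genes), with a median of -0.59. Without Ctrl marrow replicate 1, 2 were positive, and without Ctrl bone replicate 1 or KO marrow replicate 2, 1 was. In all, 14 were higher in KO marrow and 6 in KO bone, against 47.9% and 51.3% of all genes called in either direction. Fos, a subunit of the AP-1 factor, had 5960, 4831 and 2801 CPM in KO bone against 5505, 5530 and 5531 CPM in Ctrl bone, and 9152, 10970 and 8576 CPM in KO marrow against 3341, 5068 and 5550 CPM in Ctrl marrow. The bone groups overlapped and the marrow groups did not, and the difference was -1.33 ± 0.31 (adjusted p = 0.00635). Of 19 genes responsive to cyclic AMP or parathyroid hormone 3 had a positive and 3 a negative difference (31.6% called). Without Ctrl marrow replicate 1, 5 were positive. Per1, a clock gene also induced by glucocorticoids, rose by 1.23 in bone and by 2.77 in marrow (log2). Nr4a2, an orphan nuclear receptor induced by cyclic AMP, had 56.3, 62.6 and 62.9 CPM in KO bone against 48.4, 49.8 and 41.7 CPM in Ctrl bone, and 10.1, 7.21 and 6.39 CPM in KO marrow against 11.8, 19.5 and 26.6 CPM in Ctrl marrow. It fell in marrow without overlap, its bone value of 0.38 was not called (adjusted p = 0.0959), and the difference was 1.64 ± 0.28 (adjusted p = 5.5e-04). Glucocorticoid-responsive genes had 5 negative and 0 positive differences of 16 (31.25% called). Of these 16 genes, 15 were higher in KO marrow against 10 in KO bone. Their median of -0.40 was -0.23 without KO marrow replicate 2, -0.26 without Ctrl marrow replicate 2, and -0.54 with the member at 0 in a whole group set to 3 counts per library.

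Marrow stromal genes rose in both subsets, 16 of 18 in each. In either direction, 51.3% of all genes were called in bone and 47.9% in marrow. The difference was positive for 4 and negative for 1 of the stromal genes (27.8% called, against 18.4% of all genes). With library totals alone 3 were positive and 3 negative, and with DESeq2 or a replicate block 7 were positive. Cxcl12, the chemokine that holds blood stem cells in the niche, had 498, 423 and 340 CPM in KO bone against 91.3, 120 and 122 CPM in Ctrl bone, and 31579, 29679 and 36737 CPM in KO marrow against 26387, 19390 and 19457 CPM in Ctrl marrow. KO was higher in every library, 3.79-fold in bone and 1.5-fold in marrow, and the difference was 1.34 ± 0.24 (adjusted p = 6.85e-04). The bone level stayed far under the marrow level in both genotypes. Hp and Esm1, secreted proteins of the stroma, had differences of 1.33 ± 0.23 and 1.34 ± 0.24. Foxc1, a transcription factor of the niche cells, was the negative one at -0.83 ± 0.18. Of 14 regulators of osteoclasts and blood 4 were positive and 0 negative, and with library totals alone 2 and 1. Several of them, Cxcl12 included, are also in the stromal or the osteoblast list. Tnfrsf11b, the RANKL decoy osteoprotegerin, averaged 105 CPM in KO bone, 62.5 CPM in Ctrl bone, 14.1 CPM in KO marrow and 24.4 CPM in Ctrl marrow, and its difference of 1.54 ± 0.41 (adjusted p = 0.0155) lost its call with library totals alone (adjusted p = 0.0681) and without a filter on low counts (adjusted p = 0.0699). Its bone groups overlapped, at 62.3, 79.2 and 175 CPM in KO bone against 69.2, 57.7 and 60.5 CPM in Ctrl bone. The call of Angpt1 (adjusted p = 0.049) ended in most single-library omissions. Cell division genes were lower in KO marrow for 19 of 22 and in KO bone for 13, against 47.9% and 51.3% of all genes called in either direction. They had 5 positive differences (22.7% called, near the 18.4% of all genes), and their median of 0.51 turned to -0.01 with library totals alone, where 2 were positive and 1 negative. Cytosolic ribosomal protein genes were lower in KO marrow for 20 of 20 and in KO bone for 17, against the same 47.9% and 51.3%. Both knockout effects moved with transcript length over all genes, and its part in this fall was not tested. The ribosomal genes had 4 positive differences (20% called, near the 18.4% of all genes). That count was 13 with a replicate block. It was 9 without KO marrow replicate 3 or KO bone replicate 2, and 2 without Ctrl marrow replicate 2, Ctrl bone replicate 1, KO marrow replicate 1, or KO bone replicate 1 or 3. The median of 0.33 turned to -0.19 with library totals alone, where Rpl4, Rpl3 and Rpl13 reversed.

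Outside the lists, and among genes with at least 5 CPM in a group, 1 CPM in each subset and no overlap in at least 1 subset, the largest positive differences were mostly at genes that rose in bone and fell in marrow. Inhba, the activin A subunit, had 10.2, 17.2 and 89.6 CPM in KO bone against 5.81, 7.38 and 4.96 CPM in Ctrl bone, and 1.93, 2.17 and 2.87 CPM in KO marrow against 11.2, 13.2 and 19.5 CPM in Ctrl marrow. The groups did not overlap, but KO bone replicate 3 was far above the others, and the difference of 5.30 ± 1.06 (adjusted p = 0.00409) is imprecise. Without that library it was 3.84. Itga7, an integrin that binds laminin, had 15.4, 11.4 and 17.6 CPM in KO bone against 4.52, 2.21 and 1.97 CPM in Ctrl bone, and 9.31, 12.4 and 12.2 CPM in KO marrow against 26.8, 34.8 and 85.5 CPM in Ctrl marrow. The order of the subsets turned: bone lay under marrow in Ctrl and above or near it in KO. Its difference of 4.42 ± 0.62 (adjusted p = 1.71e-04) was 3.76 without Ctrl marrow replicate 3. Kcnn4, a calcium-activated potassium channel, had 72.1, 96.1 and 169 CPM in KO bone against 9.20, 16 and 9.97 CPM in Ctrl bone, and 4.09, 1.98 and 2.91 CPM in KO marrow against 7.08, 7.53 and 6.0 CPM in Ctrl marrow (difference 4.43 ± 0.47, adjusted p = 9.82e-06). Nt5e (chromosome 9, 88327197 to 88372092, plus strand), the surface enzyme CD73 that makes adenosine, had 694, 747 and 699.5 CPM in KO bone against 129, 119 and 131 CPM in Ctrl bone, and 16.6, 18.9 and 21.0 CPM in KO marrow against 19.8, 24 and 24.7 CPM in Ctrl marrow. It rose 5.64-fold in bone, was not called in marrow (adjusted p = 0.109), and had a difference of 2.77 ± 0.19 (adjusted p = 8.12e-08). The other large ones were Col14a1, Nes, Mustn1, Perp, Fbln2, Cdsn and Hspb7, with differences from 4.35 to 4.95. Most of them rested in part on Ctrl marrow replicate 3: without it the difference was 3.76 for Col14a1, 3.42 for Mustn1, 3.02 for Perp, 3.52 for Fbln2, 3.59 for Cdsn and 3.48 for Hspb7. That of Cdsn was 3.66 without KO bone replicate 3, and that of Nes was 5.54 without Ctrl bone replicate 2. Perp was not called in bone and Cdsn not in marrow, and Cdsn lost its call without Ctrl marrow replicate 3 (adjusted p = 0.0549).

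**Figure D4:**
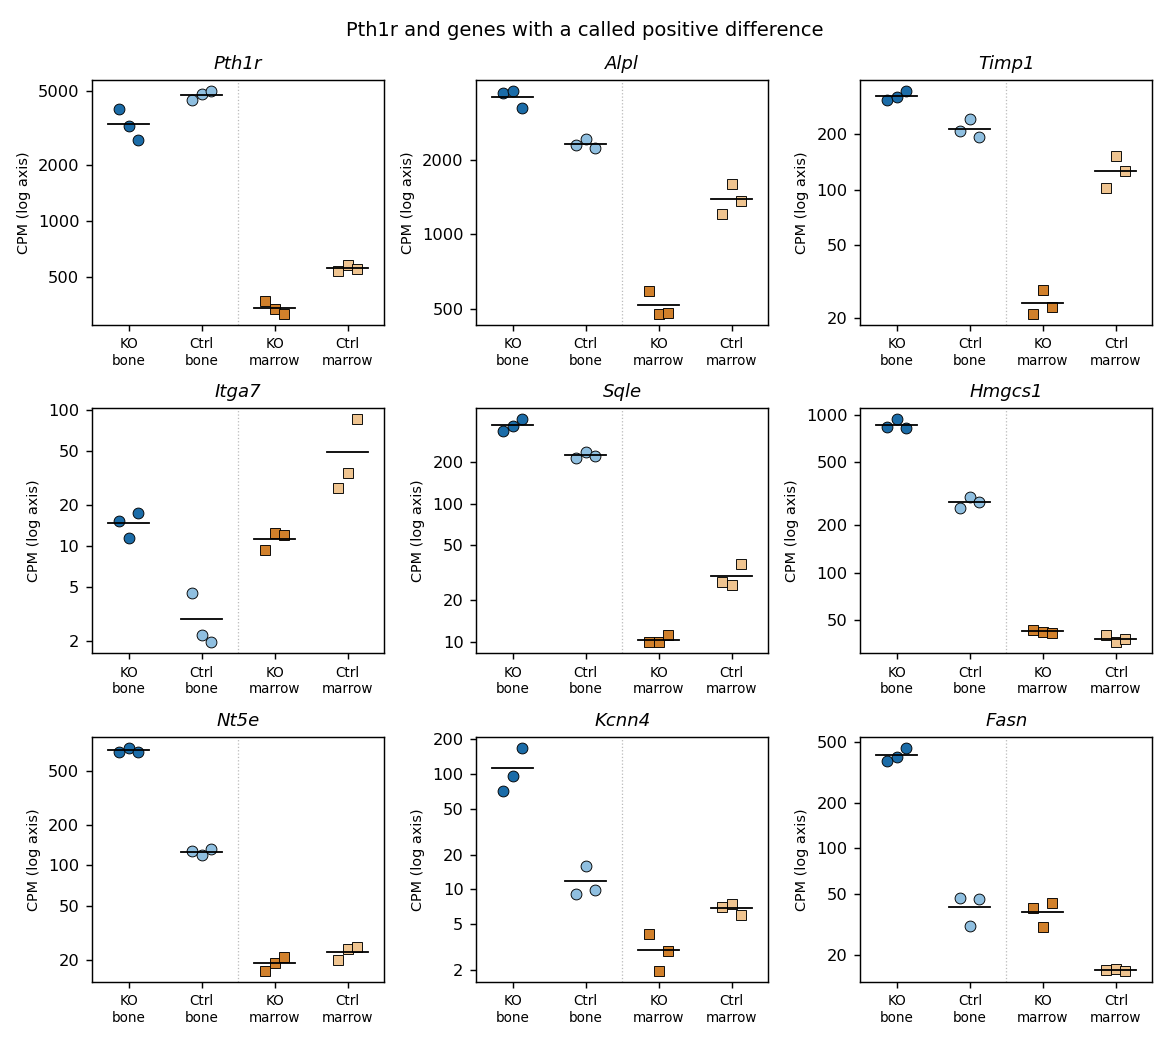
CPM on a log axis in each of the 12 libraries for Pth1r and 8 genes with a called positive difference; points are libraries and bars the mean of 3. Alpl, Timp1, Itga7, Sqle and Kcnn4 lie higher in KO than in Ctrl in bone and lower in marrow, Nt5e moved in bone, Fasn rose in both and Pth1r fell in both.

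The largest negative differences under the same limits were at genes that rose in marrow, with or without a call in bone. Pim3, a survival kinase, had 589, 507 and 277 CPM in KO bone against 389, 412 and 422 CPM in Ctrl bone, and 1203, 1211 and 1239 CPM in KO marrow against 168, 115 and 141 CPM in Ctrl marrow. It was called in marrow, 8.62-fold higher, with a difference of -2.94 ± 0.30 (adjusted p = 7.37e-06). Six2, a homeobox factor of progenitor cells, had the most negative difference under these limits, -3.96 ± 0.60 (adjusted p = 1.71e-04), with a called rise in marrow (3.59) and no call in bone (-0.37). Arxes1 and Arxes2, near-identical neighbours on chromosome X that were described in fat cells, fell in bone (-0.92 and -1.24) and rose in marrow (3.03 and 2.14), and reads of the pair may have been split. Dlk2, a membrane protein related to the preadipocyte factor Dlk1, fell by 0.70 in bone and rose by 2.81 in marrow (log2). Zdhhc23 rose in both, by 1.51 in bone and by 5.42 in marrow, and Dusp9 was called in marrow alone, with differences of -3.92 ± 0.67 and -2.84 ± 0.74. That of Zdhhc23 was -4.65 without Ctrl marrow replicate 3.

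**Figure D5:**
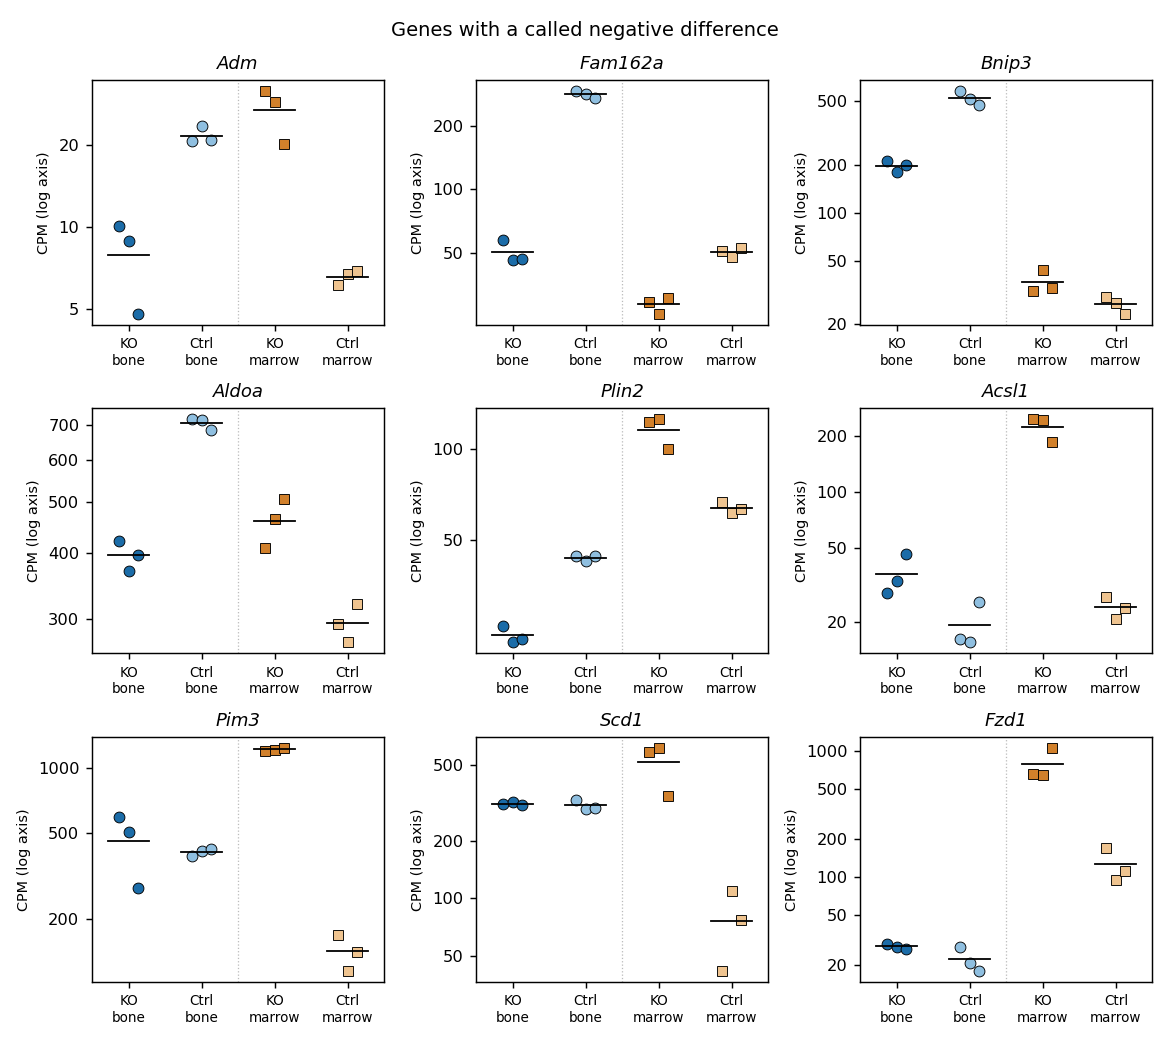
CPM on a log axis in each of the 12 libraries for 9 genes with a called negative difference; points are libraries and bars the mean of 3. Adm, Aldoa and Plin2 lie lower in KO than in Ctrl in bone and higher in marrow, Fam162a fell in both, and Pim3, Scd1 and Fzd1 moved in marrow.

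Markers of other cell types were often too low to test. Of the 10 lists of 8 genes, that of T and NK cells had 0 genes tested, those of B cells and of skeletal muscle 3 each and that of osteoclasts 4, all with 0 calls. The neutrophil, macrophage and megakaryocyte lists had 7, 8 and 6 genes tested and 0 calls. Of 8 Schwann cell genes, 6 were tested and 3 had positive differences, and the 8 summed to 72.2 to 99.2 CPM in KO bone, 124 to 171 CPM in Ctrl bone, 11.4 to 12.9 CPM in KO marrow and 27.7 to 33.8 CPM in Ctrl marrow, with Foxd3 at 0 in all libraries. Endothelial genes, with 7 tested and 1 call (Emcn), summed to under 10 CPM in every library. Erythroid genes had 8 tested and 1 call (Epb42). The 8 osteoclast genes summed to 125 to 141 CPM in KO bone, 167 to 240 CPM in Ctrl bone, 255 to 654 CPM in KO marrow and 646 to 848 CPM in Ctrl marrow. The part of such cells in the results above was not tested. Transcript length, which moved with both knockout effects (Spearman correlation over 15511 genes 0.44 in bone and 0.41 in marrow), moved little with the difference (0.094). A correction for it left 2921 genes called, 2607 of them shared in direction with the calls above.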

How the data were processed

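The deposited tables hold raw counts of reads for each gene, written by featureCounts according to the authors' file headers. The submitters' processing notes list mm10, STAR, featureCounts and DESeq2, with no versions. SMART-Seq v4 was the cDNA kit, per the labels' protocols. Strand setting and handling of multi-mapping reads are not given, which leaves overlapping genes and near-identical copies uncertain.

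All 18 libraries (6 groups of 3, taken from the titles) were fitted in edgeR 4.0.16 (R 4.3.3) with 1 mean per group, 12 residual degrees of freedom, TMM scaling, filterByExpr by group (minimum count 10, minimum total 15) and robust quasi-likelihood F-tests, two-sided, with Benjamini-Hochberg adjustment over 15516 genes at 0.05. The contrast is the knockout effect in GFP-positive bone minus that in marrow; both effects come from the same fit. SEs of log2 values were derived from the fold change and F. CPM are of the TMM-scaled library; sums over marker lists are of the unscaled total. Without molecular identifiers, the 3-count floors describe counting error alone. Symbols, coordinates and transcript lengths come from GENCODE vM21 (mm10): 54409 of 54446 IDs matched. Promoters come from RefSeq.

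The scripts were tested on simulated counts. Every pair of libraries within a group differed beyond sampling noise (chi-square over its degrees of freedom from 17.0 to 56.5), so all were kept separate. The members and all 24 gene lists and 10 marker lists were chosen with earlier results of these data known. Named are Pth1r; the 10 largest differences on each side and the 5 with the smallest p on each side; the 5 opposite effects on each side with the largest smaller effect; and up to 4 called genes per list with the smallest p. Except for Pth1r and list members, a named gene needed 5 CPM in a group, 1 CPM in each subset, no group at 0 and no overlap in a subset, and gene models were left out. Some genes that the rule names are not reported here. Members outside this rule are given where a call count is listed in full. Col2a1, Sp7, Lepr, Bglap, Dmp1, Acta2, Car9 and Vegfa were also given outside the rule. Tested alternatives were DESeq2 1.42.0, RLE factors, library totals, other filters, 12 libraries alone, a replicate block, a length correction, each library left out, and, added after seeing the data, estimateDisp dispersions.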

Additional observations from a re-analysis of the deposited data

Results flagged for a closer look

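The knockout effect went in opposite directions in the 2 subsets, with both effects and the difference called, at 327 genes. The difference between the subsets was tested for each by the interaction term of the edgeR fit. All genes with opposite called effects passed it. Such effects from the same fit make a called difference all but certain, so the test adds little support here. The 5 named genes that were higher in KO bone and lower in KO marrow had differences of 5.30 (Inhba), 4.95 (Col14a1), 4.89 (Mustn1), 4.42 (Fbln2) and 4.42 (Itga7) on the log2 scale. Inhba encodes an activin subunit, Col14a1 a collagen of fibril surfaces, Fbln2 a matrix protein and Itga7 an integrin. Fbln2 rose 3.84-fold in bone and fell 5.59-fold in marrow, and Mustn1, a small nuclear protein of muscle and skeleton, rose 4.27-fold in bone and fell 6.95-fold in marrow. Part of these sizes rested on 1 library: without Ctrl marrow replicate 3 (66.5 CPM of Mustn1, against 7.3 and 13.5 CPM in the other Ctrl marrow libraries) the difference was 3.42 for Mustn1, 3.76 for Col14a1, 3.52 for Fbln2 and 3.76 for Itga7, and without KO bone replicate 3 it was 3.84 for Inhba. The 5 that were lower in KO bone and higher in KO marrow had differences of -3.95 (Arxes1), -3.43 (Adm), -3.38 (Arxes2), -2.28 (Hrct1) and -1.87 (Rarres1). Rarres1 was 2.01-fold lower in KO bone and 1.81-fold higher in KO marrow, and Hrct1 was 2.01-fold lower in KO bone and 2.42-fold higher in KO marrow. KO and Ctrl libraries of these 10 genes overlapped in neither subset. Their naming required no overlap in at least 1 subset and both effects called, so this follows in part from the selection.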

How the results depend on the processing

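With library totals alone the calls rose to 5677 (766 positive, 4911 negative), of which 2582 were at least 2-fold and 529 had opposite effects; 1943 calls were shared in direction with TMM. Pth1r (-0.34), Rpl4 (-0.011), Rpl3 (-0.060) and Rpl13 (-0.11) reversed there, and the median of all genes moved by -0.52, the setting's own construction. Requiring 5 CPM in both subsets tested 8845 genes and left 952 calls of at least 2-fold, with 2517 calls in all. The other alternatives stayed within 1.5 times: 3479 calls with DESeq2, 2899 with RLE factors, 2370 without a filter, 2565 with 12 libraries, 2864 with estimateDisp dispersions and 2921 with the length correction. Leaving out 1 library at a time gave 2210 to 2815 calls (1366 to 1612 positive, 844 to 1210 negative, 1244 to 1529 of at least 2-fold and 264 to 352 opposite). The replicate block gave 3449 calls, 3400 with the length correction. Same-number bone and marrow libraries deviated together only weakly (correlation 0.064 to 0.132), so the numbers were not taken as pairs. Each library still correlated best with its own number, a weak hint from the data. Same-number KO and Ctrl libraries of a subset, which differ in genotype, ran from -0.056 to 0.065. No call was reversed in direction among those shared with any alternative. Of 112 named genes, 112 kept direction and call with DESeq2, RLE factors and the block, 101 with library totals alone, and 107 to 110 without single libraries. Depth limits genes of few reads, such as Pthlh and Car9.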
